A study of Homo sapiens with 18 samples.

Results

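FTO and YTHDF3 stand at opposite ends of the N6-methyladenosine (m6A) pathway, and both were among the genes that the authors called in UMRC2 cells carrying the FTO hairpin shFTO#5. FTO is the gene the hairpins target, and with shFTO#5 it was at 24.8% of the control level. YTHDF3 was 11.2% above the control level. The members were chosen by gene name and make up 2 of the 1242 genes in the authors' deposited table. UMRC2 is an established clear cell renal carcinoma line. The groups used here were cells with the hairpin shFTO#5, cells with a different FTO hairpin, shFTO#2, and cells with a control hairpin, shControl, with 2 RNA-seq libraries of total RNA each. All were grown in the same serum-supplemented medium, and the hairpins are the only genetic difference the labels give. The series has 18 samples in all, of which 6 are RNA-seq libraries and 12 are m6A input and immunoprecipitation libraries, which are not analysed here.

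m6A is a methyl mark on adenosines in messenger RNA. It is placed by a writer complex around METTL3 and METTL14, removed by the erasers FTO and ALKBH5, and bound by readers. FTO is an iron- and 2-oxoglutarate-dependent enzyme of the AlkB family and also acts on a related methyl mark next to the mRNA cap. YTHDF3 is a cytoplasmic reader with a YTH domain that binds m6A and works with its paralogs YTHDF1 and YTHDF2 in the translation and decay of marked transcripts.

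The libraries had been scaled to totals of 14548533 and 16806852 reads with shFTO#5, 17448921 and 15585908 with shFTO#2, and 18184675 and 16247771 with shControl. Expression was deposited as FPKM, the reads of a gene scaled to its length and to the reads of the library. Every FPKM value of the shFTO#5 and shControl libraries came back to a whole read count, so the depth behind each value is known. Of 12 markers of renal tubule and renal carcinoma cells, 7 (58.3%) were in the table, beside 13% of the 9551 genes that the authors tested. The markers were chosen with earlier results of these data known, so this share is a description. Here and for the gene lists below, which of the genes entered the authors' test is not known. Higher with shFTO#5 were the keratins KRT18 and KRT8, the carbonic anhydrases CA9 and CA12 and the kidney transcription factor PAX8, with log2(FPKM + 1) changes of 0.65, 0.18, 0.40, 0.13 and 0.18; CA12 did not pass limma's threshold with centring or quantile normalization, nor KRT8 with quantile normalization. Lower were LRP2, the endocytic receptor of the proximal tubule, with 2.86 and 2.66 FPKM in shFTO#5 cells against 4.98 and 4.27 FPKM in shControl cells, and the kidney transcription factor PAX2, with 4.95 and 5.10 FPKM in shFTO#5 cells against 7.80 and 7.60 FPKM in shControl cells. Whether these markers have a part in the changes of FTO or YTHDF3 was not tested. None of the immune, endothelial and fibroblast markers looked for was listed. The table holds only called genes, so a gene missing from it is not shown to be unexpressed or unchanged.

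FTO (ENSG00000140718) lies on the plus strand of hg38 chromosome 16 from 53701692 to 54158512 and is annotated as a protein-coding gene with 23 transcripts. The length by which its reads were divided, 11766 bases, is that of FTO-206, the principal transcript of 9 exons that encodes 505 residues. All exons of all FTO transcripts together cover 21379 bases. A different length would change the FPKM level but not a ratio between groups. RPGRIP1L, the ciliary gene on the opposite strand, overlaps the 5′ end of the FTO locus by 2247 bases, and 3 annotated antisense genes lie inside it. A pseudogene and AC007496.3, on the same strand as FTO, lie there too. The sources used here give no strand setting for the counting, and overlap with the exons of FTO was not examined. Whether reads of these genes entered the FTO count is therefore not known.

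With shFTO#5, FTO measured 0.555 and 0.526 FPKM, against 1.99 and 2.37 FPKM with shControl. These values came from 95 and 104 reads in shFTO#5 cells and from 426 and 454 reads in shControl cells. Both shFTO#5 libraries were well below both shControl libraries. How many of the other called genes have groups separated in this way was not counted. FTO was the lowest of all 1242 genes in each shFTO#5 library, and the 9th and 14th lowest in the shControl libraries. Per 1000000 reads of the library, FTO had 6.53 (5.28 to 7.98) and 6.19 (5.06 to 7.50) reads with shFTO#5, and 23.4 (21.3 to 25.8) and 27.9 (25.4 to 30.6) with shControl. The ranges are exact Clopper-Pearson 95% intervals and cover counting error only. The intervals of the shFTO#5 libraries lay far below those of the shControl libraries. Those of the shFTO#5 replicates overlapped over most of their width, while those of the shControl replicates overlapped only between 25.4 and 25.8.

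**Figure D1:**
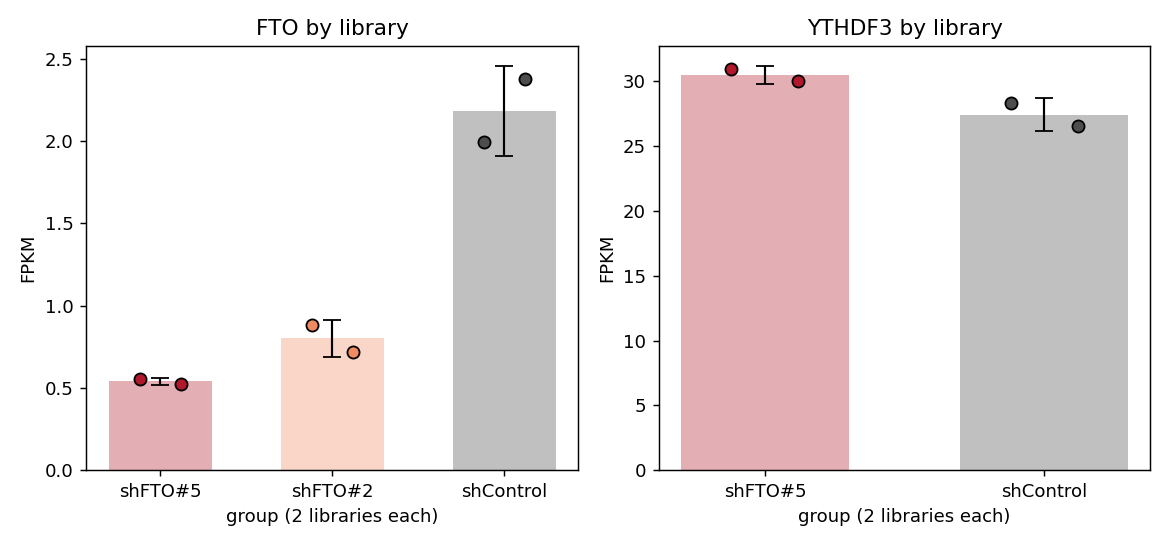
FPKM (vertical axes) of FTO (left) and YTHDF3 (right) by group, with bars for means, points for the 2 libraries and error bars for 1 SD. FTO averaged 0.540 FPKM with shFTO#5 and 0.801 with shFTO#2, below the 2.18 of shControl, whereas YTHDF3 averaged 30.5 FPKM with shFTO#5 and 27.4 with shControl. YTHDF3 has no shFTO#2 value.

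The group means of FTO were 0.540 ± 0.0205 FPKM with shFTO#5 and 2.18 ± 0.271 FPKM with shControl (SD, n = 2 each), so that 24.8% of the control level was left. On the log2(FPKM + 1) scale FTO fell by 1.04 ± 0.07 (SE) in limma, with a Benjamini-Hochberg adjusted p of 7.18e-12 over the 1242 genes. At so low a level the pseudocount of 1 FPKM makes the change look smaller. Without a pseudocount the log2 change was -2.01 ± 0.10 (SE). In bulk RNA a lower level in every cell and a loss from some of the cells cannot be told apart. The exact two-sided permutation p was 0.333, the smallest that 2 libraries against 2 can give. The table holds genes already called, so limma serves here for sizes and errors and not as a new set of calls. In the authors' test, 13% of the 9551 genes tested were called, 4.83% as lower and 8.18% as higher. The labels do not say whether the libraries of a group came from separate cultures, and the p-values measure only the spread between these libraries.

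By the ratio of mean FPKM, FTO had the largest fall of the 461 genes that were lower with shFTO#5, and by size of change in either direction it ranked 3 of 1242, after TUFM and ALDH2. The shControl libraries differed more in FTO than in most genes. The SD of log2(FPKM + 1) between them was 0.12, larger than in 97.5% of the 1242 genes. Between the shFTO#5 libraries it was 0.02, larger than in 35.7%. The pseudocount makes the spread look smaller at a lower level, so it narrows the shFTO#5 SD more. FTO was also ranked here against genes that mostly had higher levels. The gap between the nearest libraries of the groups was 1.44 FPKM, against 0.384 FPKM between the shControl libraries.

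The authors' deposited table gave FTO a smaller change than the FPKM did. The log2 change of FTO in the authors' deposited table was -1.28 (adjusted p = 2.46e-21), while the log2 ratio of mean FPKM was -2.01. The difference of 0.73 was the largest among the 1242 genes and the only one over 0.5 in size; 47 genes differed by more than 0.2. In the other genes with at least a 2-fold difference in mean FPKM the deposited change was also nearer 0, for example -0.61 in the authors' deposited table against an FPKM ratio of -1.05 for RGL1 and 2.94 against 3.04 for TUFM. FTO averaged 270 reads over these 4 libraries and RGL1 181, against 4737 for FOSL1, whose deposited and FPKM changes were 1.04 and 1.05. For YTHDF3 the deposited change was 0.18 and the FPKM ratio 0.15. The sources used here do not name the tool behind the authors' test.

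**Figure D2:**
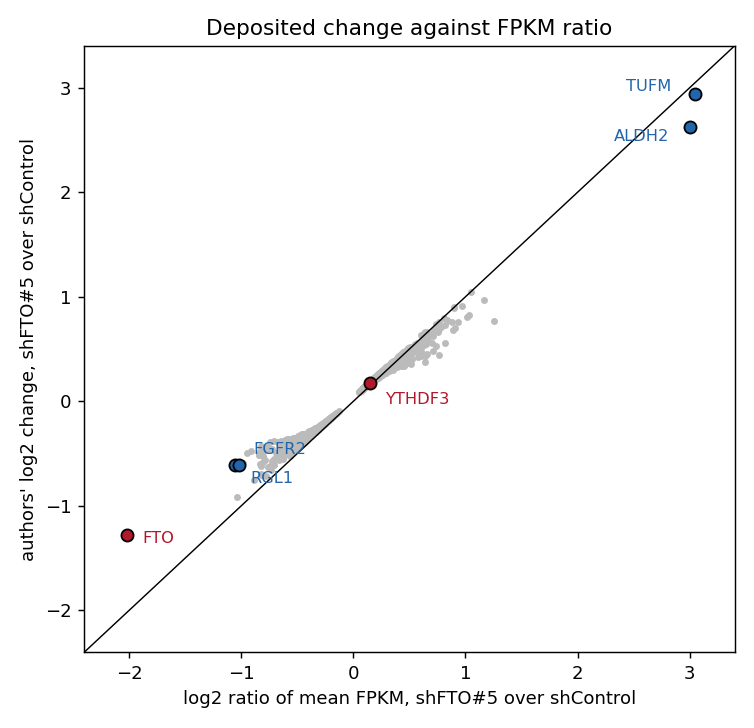
Log2 change of each listed gene in the authors' deposited table (vertical axis) against the log2 ratio of mean FPKM (horizontal axis), both shFTO#5 over shControl, with the line of equality. FTO lies farthest from the line, at -1.28 against -2.01, and YTHDF3 lies next to it, at 0.18 against 0.15.

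YTHDF3 (ENSG00000185728) lies on the plus strand of hg38 chromosome 8 from 63168553 to 63212786 and is annotated as protein coding with 16 transcripts. No annotated gene overlaps it in GENCODE release 29. Its length in the table was 5162 bases, close to the 5193 bases of its longest transcript.

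YTHDF3 measured 31.0 and 30.0 FPKM with shFTO#5, against 28.4 and 26.5 FPKM with shControl. It had 2327 and 2606 reads in shFTO#5 cells and 2663 and 2225 reads in shControl cells. Both shFTO#5 libraries were above both shControl libraries, by 1.67 FPKM between the nearest ones, which is less than the 1.84 FPKM between the shControl libraries. Per 1000000 reads, YTHDF3 had 160 (154 to 167) and 155 (149 to 161) reads with shFTO#5, and 146 (141 to 152) and 137 (131 to 143) with shControl. The intervals of the second shFTO#5 library and the first shControl library overlapped. Overlap of intervals is not a test of a difference, and no test between these single libraries was made.

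The mean of YTHDF3 was 30.5 ± 0.670 FPKM with shFTO#5 and 27.4 ± 1.30 FPKM with shControl (SD, n = 2 each), a ratio of 1.11. Its log2(FPKM + 1) was higher by 0.15 ± 0.05 (SE; 95% interval 0.05 to 0.25) in limma, with an adjusted p of 0.00649 over the 1242 genes, and the exact two-sided permutation p was again 0.333. In the authors' deposited table its log2 change was 0.18 with an adjusted p of 0.0305. That placed it 1082nd by adjusted p among the 1242 calls, and 618th by size of FPKM ratio among the 781 genes that were higher. Relative to the median of the listed genes, which itself was 0.09 higher with shFTO#5, YTHDF3 was higher by 0.06 ± 0.05, which did not pass (adjusted p = 0.261 in limma; range over the alternatives 0.00196 to 0.261). It also did not pass without the second shControl library (log2 change 0.10, adjusted p = 0.08) or without the first shFTO#5 library (0.13, adjusted p = 0.0576).

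Both genes differ widely in level. Per length, YTHDF3 had 55.8 and 57.1 times the FPKM of FTO in shFTO#5 cells and 14.2 and 11.2 times in shControl cells. Among the listed genes YTHDF3 stood near the middle, at rank 566 and 560 from the lowest in the shFTO#5 libraries and at rank 557 and 519 in the shControl libraries.

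**Figure D3:**
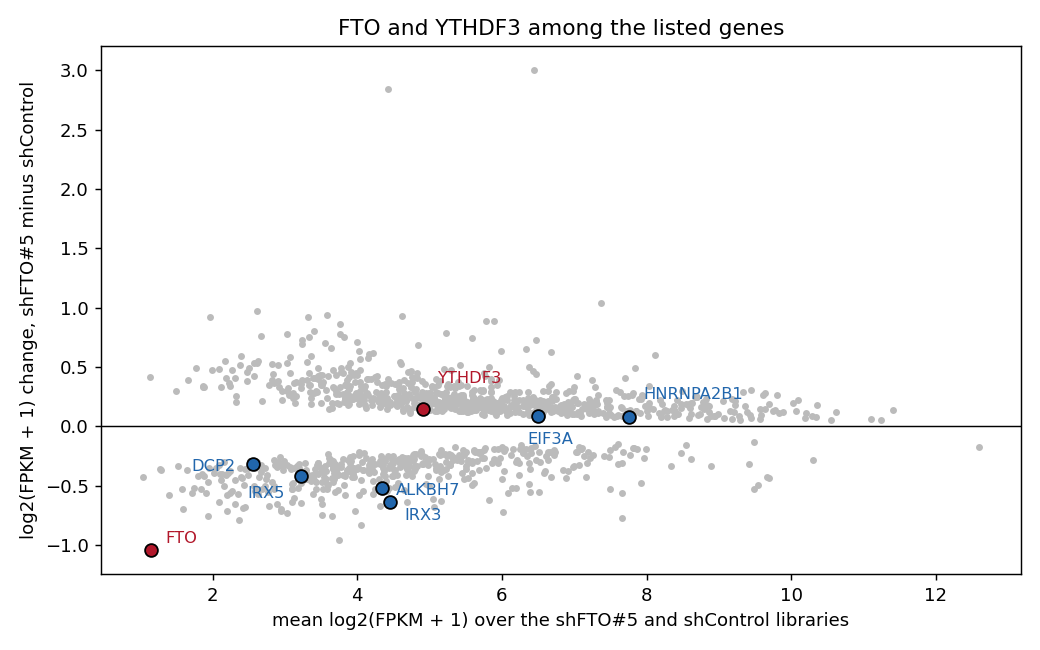
Change in log2(FPKM + 1), shFTO#5 minus shControl (vertical axis), against mean log2(FPKM + 1) over these libraries (horizontal axis) for the 1242 listed genes, one point each. FTO is the lowest point on the vertical axis, at -1.04, and YTHDF3 lies at 0.15 close to the line of no change; the other named genes are members of the m6A pathway or neighbours of FTO.

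Of 42 symbols of writers, erasers, AlkB family members and readers on the lists used, 5 were in the table. The writer VIRMA also stood on its list under the older symbol KIAA1429, so that gene is counted again. The share of 11.9% of the symbols stands beside the 13% of all tested genes that were called. Which of the genes on these lists entered that test is not known here. The 5 include FTO and YTHDF3, which were chosen with earlier results known. Of the other 40 symbols, 3 were listed. None of the 14 writer symbols was listed. Of 9 erasers and AlkB family members, 2 (22.2%) were listed, FTO and ALKBH7. Both were lower, as were 461 of the 1242 genes. ALKBH7, a mitochondrial AlkB protein, measured 16.5 and 15.2 FPKM with shFTO#5, against 23.0 and 23.3 FPKM with shControl. It fell by 0.52 ± 0.05 on the log2(FPKM + 1) scale (adjusted p = 2.24e-08 in limma).

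Of 19 readers 3 were listed, a share of 15.8% beside the 13% of all tested genes that were called. All 3 were higher as deposited, as were 62.9% of the 1242 genes. Their median log2 change was 0.13 in the authors' deposited table, against 0.18 over all 1242 genes. Beside YTHDF3 these were HNRNPA2B1, a nuclear RNA-binding protein, and EIF3A, the large subunit of the translation initiation factor eIF3, which binds m6A near the start of messages. HNRNPA2B1 measured 221.0 and 221.2 FPKM with shFTO#5 and 208 and 211 FPKM with shControl, a log2 change of 0.08 ± 0.03 that turned to -0.01 with centring on the median of the listed genes and with quantile normalization. EIF3A measured 92.5 and 92.6 FPKM with shFTO#5 and 85.3 and 88.4 FPKM with shControl. Its log2 change of 0.09 ± 0.03 became 0.002 with centring and turned to -0.002 with quantile normalization. In limma without its intensity trend, HNRNPA2B1 (adjusted p = 0.0795) and EIF3A (adjusted p = 0.0501) did not pass. Neither passed limma's threshold without the first shControl library or without either shFTO#5 library, with changes of 0.06 to 0.08 for HNRNPA2B1 and 0.07 to 0.09 for EIF3A. The paralogs YTHDF1 and YTHDF2 are not among the genes analysed here.

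Of 31 symbols of the RNA decay machinery used by YTHDF readers, 1 was listed. RIDA also stood on this list under its older symbol HRSP12, so that gene is counted again. The share of 3.23% stands beside the 13% of all tested genes that were called and the 4.83% called as lower. DCP2, the decapping enzyme, measured 4.49 and 4.06 FPKM with shFTO#5, against 5.33 and 5.79 FPKM with shControl. It fell by 0.32 ± 0.06 on the log2(FPKM + 1) scale (adjusted p = 0.000103 in limma).

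Of 17 transcripts described elsewhere as targets of FTO, 4 were listed, a share of 23.5% beside the 13% of all tested genes that were called and the 8.18% called as higher. This list was chosen with earlier results of these data known. All 4 were higher as deposited. The direction reported elsewhere for each target was not compared. Their median log2 change of 0.20 in the authors' deposited table stood beside 0.18 over all 1242 genes and 0.24 over the 781 higher ones. Cyclin D1 (CCND1), which drives the G1 phase of the cell cycle, measured 102 and 104 FPKM with shFTO#5 and 73.8 and 76.8 FPKM with shControl (log2 change 0.44 ± 0.04). BNIP3, a mitophagy receptor, had a log2 change of 0.16 ± 0.03, which became 0.0730 with centring and 0.0891 with quantile normalization, where it did not pass limma's threshold. The deubiquitinase USP7 had a log2 change of 0.17 ± 0.05, which became 0.0792 with centring and did not pass there. PFKP, a phosphofructokinase of glycolysis, had 0.08 ± 0.03, which became -0.01 with centring and -0.03 with quantile normalization. In limma without its intensity trend PFKP did not pass (adjusted p = 0.0824). PFKP also did not pass without the first shControl or the second shFTO#5 library, where its change was 0.07 and 0.05. MYC and the glutamine transporter SLC1A5 were on the list but are not among the genes analysed here.

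**Figure D4:**
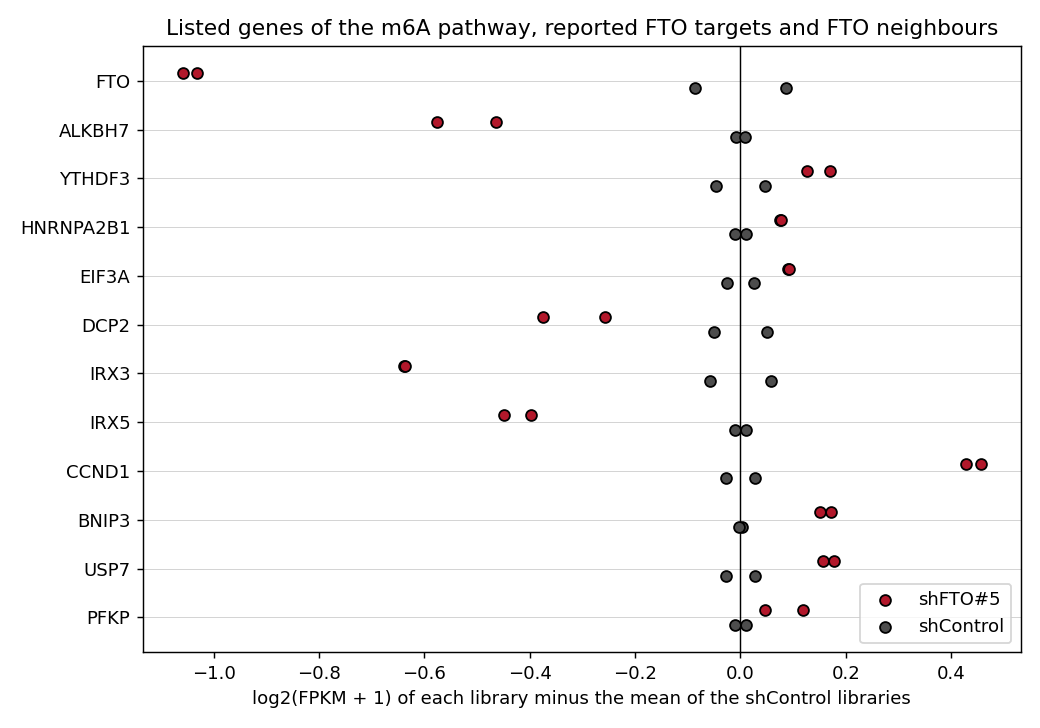
Log2(FPKM + 1) of each library minus the mean of the shControl libraries (horizontal axis) for the 12 listed genes of the m6A pathway, of mRNA decay, of reported FTO targets and of FTO neighbours, with shFTO#5 libraries above shControl libraries in each row. FTO, ALKBH7, DCP2, IRX3 and IRX5 lie to the left of the shControl libraries, and the 7 other genes to the right.

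Both listed genes near FTO on chromosome 16 were lower with shFTO#5. IRX3 and IRX5 are homeobox transcription factors of the Iroquois family, and introns of FTO are known to hold distant enhancers of these genes. IRX3 (hg38 chromosome 16, 54283304 to 54286763, minus strand), 125 kb beyond the end of FTO, measured 16.57 and 16.61 FPKM with shFTO#5, against 25.3 and 27.5 FPKM with shControl. IRX5 (54930862 to 54934485, plus strand), 772 kb beyond the end of FTO, measured 6.93 and 7.21 FPKM with shFTO#5, against 9.73 and 9.89 FPKM with shControl. In both genes both shFTO#5 libraries were below both shControl libraries. Listed genes were called for such differences, and the share of them separated in this way was not counted. IRX3 fell by 0.64 ± 0.05 (adjusted p = 7.33e-10) and IRX5 by 0.42 ± 0.06 (adjusted p = 1.18e-06) on the log2(FPKM + 1) scale in limma. In the authors' deposited table their log2 changes were -0.55 and -0.32, the second with an adjusted p of 0.0478, close to the limit of 0.05.

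These were the only listed genes among the 15 protein-coding genes within 2 Mb of FTO; RPGRIP1L, RBL2, AKTIP, CHD9 and IRX6 were not listed. This share of 2 in 15 stands beside the 13% called among all genes tested. The 15 are all annotated protein-coding genes of the window, and which of them were tested is not known here. The shares therefore have unlike bases. None of the 7 protein-coding genes within 2 Mb of YTHDF3 was listed.

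**Figure D5:**
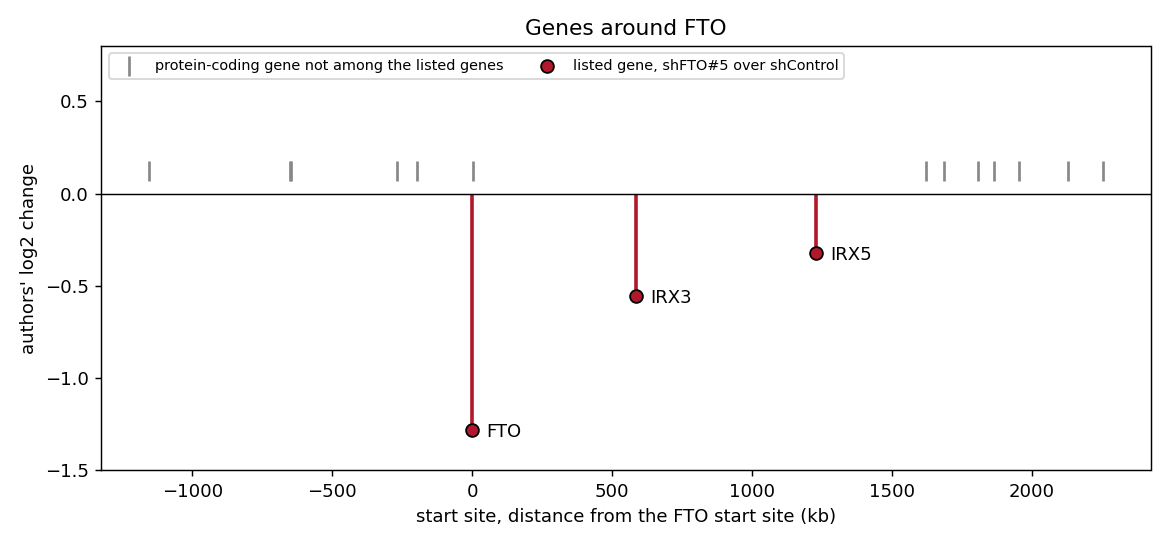
Log2 change with shFTO#5 over shControl in the authors' deposited table (vertical axis) against the distance of each gene's start site from that of FTO in kb (horizontal axis), for the protein-coding genes within 2 Mb of FTO. FTO (-1.28), IRX3 (-0.55) and IRX5 (-0.32) are drawn with their values, and grey ticks stand for the 13 genes that were not listed.

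The shFTO#2 values follow a gene order of their own, so each had to be placed on a gene before it could be read. Of these entries 561, or 73.2%, could be placed through whole read counts, gene order and the authors' fold change. FTO was among them. Its length gave whole reads in both shFTO#2 libraries for 2 entries, and 1 of these also matched the authors' fold change and the gene order, between the entries of TPM1 and TLDC1. At that entry FTO measured 0.882 and 0.720 FPKM, from 181 and 132 reads, against 1.99 and 2.37 FPKM with shControl. The shFTO#2 mean of 0.801 ± 0.114 FPKM (SD, n = 2) was 36.7% of the control level, and the groups did not overlap.

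On the log2(FPKM + 1) scale FTO fell by 0.82 ± 0.07 with shFTO#2 (adjusted p = 1.83e-05 over the 561 placed genes in limma; exact permutation p = 0.333). In the authors' deposited table the entry has a log2 change of -0.90 (adjusted p = 7.69e-12), again nearer 0 than the FPKM ratio of -1.45. The authors' test called 7.63% of 10038 genes with shFTO#2, 3.46% as lower and 4.17% as higher. Both hairpins were compared with the same shControl libraries. From low to high, FTO was ordered shFTO#5, shFTO#2 and shControl, and the shFTO#5 and shFTO#2 libraries did not overlap. No test of the difference between the hairpins was made.

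YTHDF3 was not found among the shFTO#2 entries. No entry gave whole reads with its length in both libraries. The placed genes on either side of it, ZFP36L1 and PCYT2, held entries 669 and 670, so no entry was left between them. IRX3, ALKBH7, EIF3A and BNIP3 likewise had no entry of whole reads and none left between their placed neighbours. HNRNPA2B1 had no entry of whole reads, and IRX5 had 1 that did not match the authors' fold change, each with 1 unplaced entry between its neighbours. A gene absent from these calls did not pass the authors' test with shFTO#2 or was not tested, which does not show that its response differs between the hairpins. PFKP and USP7 could not be placed. Of the other pathway genes DCP2 and CCND1 were placed. DCP2 measured 4.45 and 4.08 FPKM with shFTO#2 (log2 change -0.32 ± 0.06) and CCND1 99.4 and 101 FPKM (0.41 ± 0.03), near their shFTO#5 values. Only genes called with both hairpins could be placed, with the sign of the authors' fold change required and the shControl libraries shared. The nearness is therefore a description.

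Genes whose profile over the 4 shFTO#5 and shControl libraries was most like that of FTO were still far from it. Likeness was the Euclidean distance between log2 FPKM profiles, each gene centred on its own mean. The nearest genes were RGL1, an exchange factor for Ral GTPases, at 0.97, the acyl-CoA thioesterase ACOT11 at 0.98 and the receptor FGFR2 at 1.01, against a median of 2.17 over all listed genes. RGL1 measured 1.37 and 1.38 FPKM with shFTO#5 and 2.80 and 2.91 FPKM with shControl. YTHDF3 had close neighbours at 0.02, against a median of 0.24. They were the ubiquitin ligase TRIP12, the signal recognition particle subunit SRP68 and FAM83D, a protein of the mitotic spindle. TRIP12 measured 37.2 and 35.6 FPKM with shFTO#5 and 34.0 and 32.0 FPKM with shControl. These distances rest on 4 libraries and are a description.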

How the data were processed

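Per the submitters' processing notes, Trim Galore 0.4.2, STAR, RSEM and hg38 were used; their roles, the annotation release, the strand setting and the tool of the differential test were not given in the sources used here. The authors deposited FPKM, gene lengths, log2 fold changes and p-values with adjusted p-values, per the file headers, for genes with an adjusted p under 0.05 in the second knockdown comparison. Its rows fit the shFTO#5 columns by direction in all 1242 genes. The deposited log2 fold changes run control over knockdown and were turned round here to knockdown over control. The series' design text numbers the hairpins differently from the sample titles, which were used. The numbers of genes tested were computed from the p-values, adjusted p-values and ranks, taking the adjustment as Benjamini-Hochberg. Library totals came from the common step of FPKM times length (tolerance 1e-05). FPKM are not counts, so no count model was used.

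Limma 3.58.1 in R 4.3.3, with an intensity trend and Benjamini-Hochberg adjustment, was run on log2(FPKM + 1) without a filter, for shFTO#5 and shControl on all listed genes and, for shFTO#2, on the placed genes of all 3 groups. It was tested on simulated data. Exact permutation tests used scipy 1.17.1. An shFTO#2 entry was placed where both libraries gave whole reads, the FPKM ratio had the sign of the authors' fold change and lay within 0.15 of it in log2 (or within its size, where larger), and the longest chain kept the gene order. Alternatives were other pseudocounts, a filter, centring, quantile normalization, no trend, the replicate number as a block and leaving out each library. Genes are annotated from GENCODE release 29 on the same build. The members and lists were chosen with earlier results of these data known. Genes named are the members, every listed gene of the pathway, target, neighbour and cell type marker lists, and the 3 genes most like each member; TUFM, ALDH2, FOSL1 and the placed neighbours were named after their values were seen. Symbols were matched for 1228 of the 1242 identifiers. Hairpin sequences are not used here.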

Additional observations from a re-analysis of the deposited data

How the results depend on the processing

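FTO was lower with shFTO#5 and with shFTO#2 under every alternative run. It passed limma's threshold in the fits of all libraries, but these fits hold only genes that the authors had called. In the main shFTO#2 fit every placed gene passed, with the largest adjusted p, 0.0348 in limma, for MKI67. The direction with shFTO#2 was fixed by the placement, which required the sign of the authors' fold change. With shFTO#5 its log2 change ranged from -1.13 to -0.96 when 1 library was left out, and with shFTO#2 from -0.91 to -0.73. It was -1.83 with a pseudocount of 0.1 FPKM and -2.01 with none for shFTO#5, and -1.34 and -1.45 for shFTO#2. Centring shifted the listed genes by -0.09 for shFTO#5 and the placed genes by -0.15 for shFTO#2, where FTO was then -0.97. YTHDF3 stayed higher but did not pass with centring (0.0594, or 0.0620 without the pseudocount, an alternative chosen after seeing the data) or quantile normalization (0.10), and ranged from 0.10 to 0.19 without single libraries, failing without the first shFTO#5 or the second shControl library. The cause was not tested. Centring and quantile normalization took only called genes as their reference, 781 higher and 461 lower with shFTO#5. These scalings cannot show how a gene stood against all expressed genes. Of the 5 listed m6A genes, 3 were higher as deposited, 2 with centring and 1 with quantile normalization. The direction of HNRNPA2B1 (-0.0128 with centring, -0.0150 with centring and no pseudocount, -0.00735 with quantile normalization), PFKP (-0.00639, -0.00870 and -0.0330 in the same order) and EIF3A (-0.00218 with quantile normalization) turned round. Over 23 other named genes, cell type markers included, 238 of 276 recomputed changes kept their direction and side of the threshold, 31 kept the direction but no longer passed and 7 were reversed. With the replicate block FTO was -1.04 (shFTO#5) and -0.82 (shFTO#2) and YTHDF3 0.15, with no call changed. The replicate numbers share no stated culture or day, and deviations of same-numbered libraries had r = 0.09 over genes. With 2 libraries a group, and 95 reads of FTO in the shallowest one, small differences could not be resolved.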

Other observations

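The FPKM of both genes depend on lengths that the table does not explain. For 923 of the 1230 listed genes found in GENCODE release 29 the length was that of the longest transcript, as it was for FTO, and for 1005 it was that of some annotated transcript. YTHDF3 was not among these.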
